A study of Mus musculus with 7 samples.

Results

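The integrated stress response genes described here are 37 mouse genes, taken by symbol from the 23284 gene rows of each library. They comprise 10 transcription factors and feedback regulators, 10 enzymes of amino acid and one-carbon metabolism, 7 amino acid transporters, 9 genes of tRNA charging and tRNA export, and the lipoprotein receptor gene Vldlr. RNA was sequenced from the atrioventricular canal, the segment of the embryonic heart tube in which the valves form, of outbred NMRI mouse embryos. The Hand2 null group held 4 libraries from embryos homozygous for Hand2 d/d, an allele in which Cre had removed the whole coding region in the germline, so that every cell of the embryo lacked it. The wild-type group held 3 libraries from embryos labelled wild type at Hand2. Each library pooled 4 hand-dissected canals, with pools matched for somite number and sex ratio. Embryos had 18 to 23 somites, which the labels put earlier than the day 9.5 of the titles, and a further wild-type pool was left unsequenced for poor RNA. HAND2 is a transcription factor of the basic helix-loop-helix family, and the title of the series concerns valve development.

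The integrated stress response is a shared output of several kinases that sense amino acid shortage, misfolded protein in the endoplasmic reticulum, haem shortage or double-stranded RNA. Each kinase phosphorylates the translation factor eIF2, which lowers general translation while favouring translation of the transcription factor ATF4, so that ATF4 protein can change without a change in Atf4 RNA. ATF4, often as a dimer with a C/EBP protein, raises transcription of genes for amino acid uptake, amino acid synthesis and tRNA charging, and of the factor CHOP (gene Ddit3), while TRIB3 and GADD34 (gene Ppp1r15a) feed back on the pathway. The files hold RNA levels only, so neither eIF2 phosphorylation nor ATF4 protein was measured.

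ATF4 and its partners bind the C/EBP-ATF composite element, searched here as the letters TGATGNAAN on both strands, where N is any base. RefSeq promoter windows on build GRCm38.p6 (250 bases before to 50 after each annotated start) were given for 31 of the 37 genes, and 11 of these (35.5%) held the element in at least 1 window. Of all 27025 genes with a window, 1215 (4.5%) held it. Several of these genes are textbook ATF4 targets, so this share is a description. Of the genes called higher in the null, defined below, 5 of 9 with a window held the element (55.6%), against 6 of 22 that were not called (27.3%). The 5 are printed 5′ to 3′ on the strand of the gene because they pair the element with a change in RNA. The element is in capitals and reads as its reverse complement in each, since it lay on the opposite strand.
Trib3, chr2:152344029-152344057, minus strand: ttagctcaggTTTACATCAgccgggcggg
Chac1, chr2:119350998-119351106, plus strand: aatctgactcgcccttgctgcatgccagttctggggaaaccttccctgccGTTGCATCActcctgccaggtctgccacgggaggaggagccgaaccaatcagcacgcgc
Slc1a4, chr11:20332700-20332728, minus strand: tgcctcctgcGTTGCATCAtctccagcct
Iars, chr13:49682126-49682154, plus strand: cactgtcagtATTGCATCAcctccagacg
Vldlr, chr19:27216770-27216877, plus strand: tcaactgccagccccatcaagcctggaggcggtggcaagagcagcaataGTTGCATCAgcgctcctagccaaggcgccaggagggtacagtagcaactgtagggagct
Counted from the annotated start as base 1, the element spanned bases -194 to -186 in Chac1, -201 to -193 in Vldlr (in 1 of its 2 windows), -5 to 4 in Slc1a4, 7 to 15 in Iars and 14 to 22 in Trib3. In 33 of the 37 windows of the 31 genes, bases just after the start were found in a GENCODE transcript of the gene. The Trib3 window was not among those 33. Chac1, Slc1a4 and Vldlr shared the letters GTTGCATCA. The element was also found for Nupr1, Asns, Pycr1, Slc7a11, Gars and Aars, which were not called. A match of letters is not evidence of binding, and its absence from a window says nothing of the factor.

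Levels are given as CPM, the reads of a gene scaled to a common library total (counts-per-million units, over the reads assigned to genes). The libraries held 28667561 to 38938029 such reads in the null and 27905601 to 44860753 in the wild type, so that 3 reads, taken as the floor for counting error, equalled 0.0669 to 0.108 CPM. Hand2 had 7 to 26 reads in the null libraries and 1194 to 2123 in the wild-type libraries, which matched all 7 labels. Summed over 5 cardiomyocyte markers, the level was 14401 to 18587 CPM in the null and 15792 to 16256 CPM in the wild type, and over 4 canal markers 167 to 217 and 150 to 262 CPM. RNA of both marker lists was thus present in every library, though the sums do not give the share of canal tissue. The share of reads outside genes was highest in null replicate 2 (14.2%), and wild-type replicate 4 had the highest red blood cell sum, 22038 CPM, against 5602 to 14510 CPM in the null and 9329 to 12963 CPM in the other wild-type libraries.

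Part of the stress response genes stood higher in the Hand2 null canals. The 11 genes called higher were the regulators Trib3, Chac1, Ddit4 and Ddit3, the transporters Slc7a3 and Slc1a4, the mitochondrial enzyme Shmt2, the synthetases Sars, Cars and Iars, and Vldlr. None was called lower. The threshold for a call was an adjusted p of 0.05 (edgeR's quasi-likelihood test, Benjamini-Hochberg adjustment over 14290 genes). All 37 genes passed the filter on low counts, and the 11 are 29.7% of them, where 4.11% of all tested genes were called higher, 2.13% lower and 6.24% in either direction. At an unadjusted p under 0.05, 17 were higher and 0 lower, where 13.5% of all tested genes were higher and 10.9% lower. DESeq2 called 14 higher and 0 lower, where it called 7.01% of all genes higher and 5.42% lower. Every null library lay above every wild-type library for 16 of the 37 (43.2%, where 11.6% of all tested genes did so), and below for 0 of them (10.3% of all tested genes). The 37 genes and the lists below were chosen with earlier results of these data known, so such shares are a description and not an independent test. The log2 fold change of null over wild type was positive for 31 and negative for 6, with a median of 0.39, while the median over all tested genes was 0.02. With RLE or upper-quartile scaling, and with DESeq2, Cebpg, Psat1 and Xpot changed sign and 28 were positive. In whole-canal RNA, a different share of a cell type and a different amount of RNA per cell cannot be told apart.

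The count of 11 depended on single libraries. It was 7 with null replicate 1 left out, 5 and 6 with wild-type replicates 2 and 3 left out, and 9 to 15 with any other library left out. Over all genes, the number called higher was 284, 210 and 246 without those 3 libraries, 389 without null replicate 2 and 946 without null replicate 3. The 5 genes Trib3, Chac1, Shmt2, Slc7a3 and Vldlr kept their calls whichever library was left out.

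**Figure D1:**
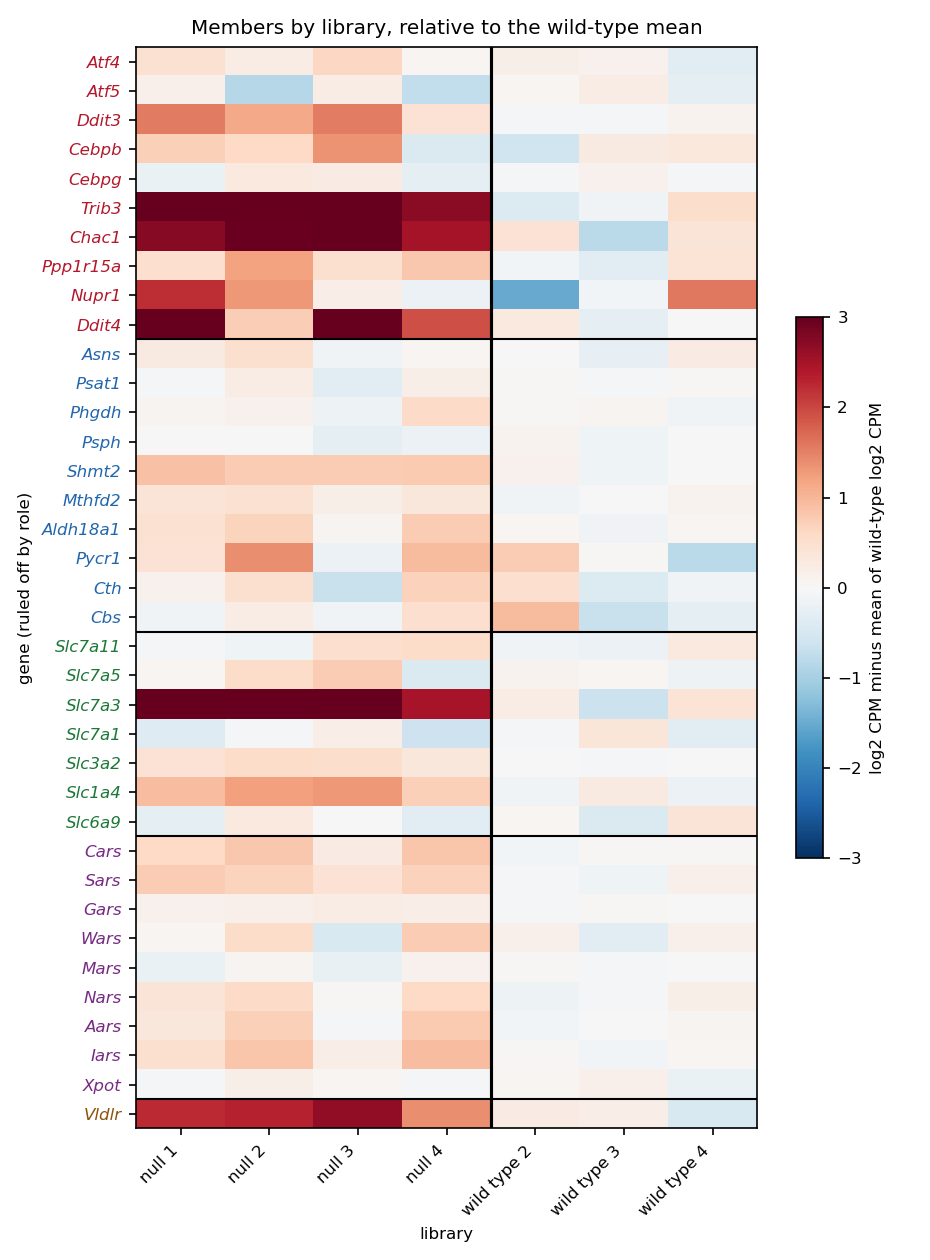
Each row is a gene, ruled off by role, and each column a library, with Hand2 null libraries left of wild-type libraries. Colour shows log2 CPM minus the mean log2 CPM of the wild-type libraries, limited to 3 in either direction, and Trib3, Chac1, Slc7a3 and Vldlr are orange to dark red in all 4 null columns while most enzyme rows are pale.

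The regulators held the largest fold changes next to that of Slc7a3, and 4 of 10 (40%) were called higher, where 4.11% of all tested genes were. Trib3, a pseudokinase that is induced by ATF4 and CHOP and restrains both, was the gene with the tenth smallest p of all those tested. Its level was 27.9, 35.01, 28.8 and 21.5 CPM in null replicates 1 to 4, against 2.41, 3.01 and 4.69 CPM in wild-type replicates 2 to 4. Every null library thus stood well above the highest wild-type library, and the fold was 8.35 (log2 fold change 3.06, SE 0.257, edgeR adjusted p = 7.69e-05). Chac1, which encodes an enzyme that degrades glutathione, was counted 159, 164, 149 and 140 times in null libraries, against 37, 9 and 22 times in wild-type libraries. These reads equalled 4.51 ± 0.732 CPM (SD, n = 4) in the null and 0.641 ± 0.287 CPM (SD, n = 3) in the wild type, without overlap. Its log2 fold change was 2.77 (SE 0.360, edgeR adjusted p = 0.000995).

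Ddit3 and Ddit4 varied more among the null pools. Ddit3, whose product CHOP is a transcription factor of prolonged stress, had 33.2, 24.4, 32.4 and 14.97 CPM in the null and 10.7, 10.8 and 12.0 CPM in the wild type. The null values were spread out while the wild-type values were close together, and null replicate 4 lay nearest to them. The log2 fold change was 1.22 (SE 0.261, edgeR adjusted p = 0.0180). It was 1.06 with null replicate 1 left out (adjusted p = 0.0629), and 1.19 and 1.21 with wild-type replicates 2 (0.0996) and 3 (0.0818) left out. Ddit4, also known as REDD1, an inhibitor of the growth kinase mTORC1 that is induced by ATF4 and by low oxygen, had 49.3, 8.19, 45.8 and 18.9 CPM in the null and 6.09, 3.98 and 4.91 CPM in the wild type. Null replicate 2 was close to the wild-type range and null replicates 1 and 3 far above it. The log2 fold change was 2.62 (SE 0.531, edgeR adjusted p = 0.0145), and the call was lost with wild-type replicates 2 (0.0629) or 3 (0.0739) left out. The count of 4 called regulators was 2 without either of these 2 libraries.

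Atf4 RNA was not called. It had 112, 94.5, 124 and 85.1 CPM in the null and 91.6, 89.2 and 65.8 CPM in the wild type, and the groups overlapped (log2 fold change 0.32, SE 0.183, edgeR adjusted p = 0.299). Ppp1r15a, whose product GADD34 directs dephosphorylation of eIF2, had 25.1, 40.5, 24.5 and 31.0 CPM in the null and 16.5, 14.1 and 23.3 CPM in the wild type. Its groups did not overlap, though the lowest null and highest wild-type values were close, and it missed the threshold (log2 fold change 0.73, SE 0.208, edgeR adjusted p = 0.0581). It passed with DESeq2 (0.0141), and with edgeR without null replicate 3 (0.0309), without wild-type replicate 4 (0.0280) or without the filter on low counts (0.0480). The related factor Atf5 averaged 3.30 ± 1.27 CPM in the null and 3.91 ± 0.677 CPM in the wild type, and Cebpg, a dimer partner of ATF4, 24.1 ± 5.01 and 23.5 ± 1.74 CPM (SD, n = 4 and 3). Cebpb, another C/EBP factor, stood at 2.14 ± 1.01 CPM in the null and 1.36 ± 0.447 CPM in the wild type, and 20.7% of its exon bases overlap another gene. Nupr1, a small stress-induced nuclear protein gene, had 10 to 59 reads in null libraries and 3 to 28 in wild-type libraries, so its log2 fold change of 0.79 (SE 0.823) is imprecise. With null replicate 1 or wild-type replicate 2 left out it was 0.07 and 0.23, and with wild-type replicate 4 left out 2.17, none of them called.

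**Figure D2:**
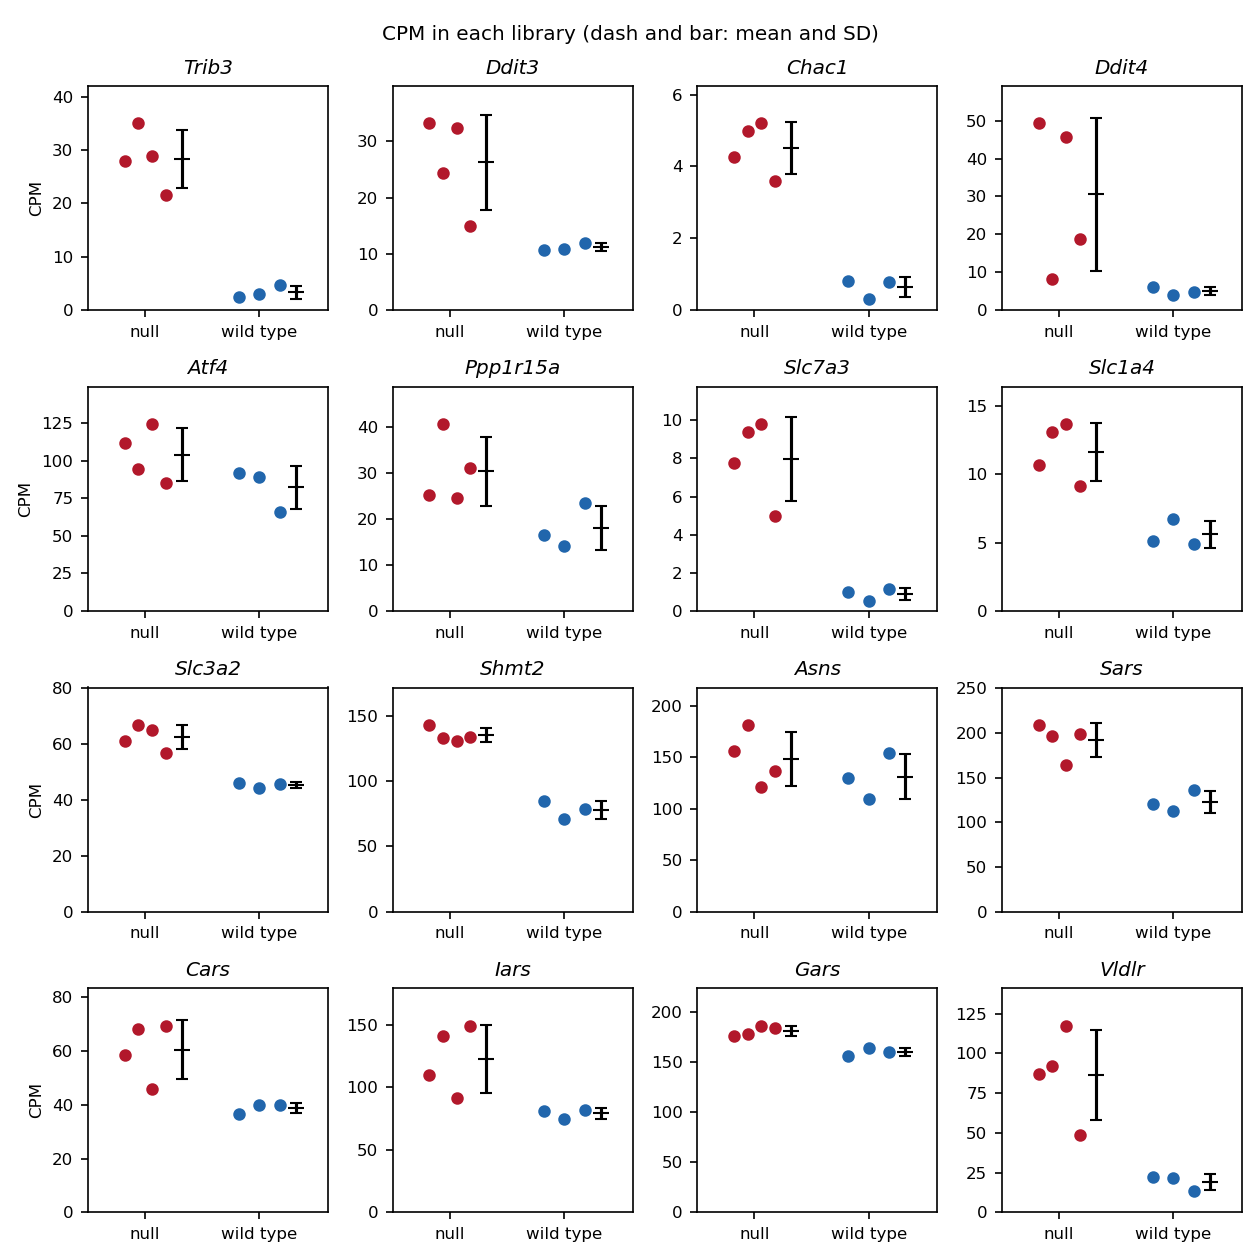
CPM of 16 of the genes in each library (points), with the mean and SD beside them, for the 4 Hand2 null libraries on the left of each panel and the 3 wild-type libraries on the right. Trib3, Chac1, Slc7a3, Shmt2 and Vldlr are clear of the wild type in every null library, whereas Atf4 and Asns overlap.

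Of the 10 enzymes, 1 was called higher (10%, where 4.11% of all tested genes were): Shmt2, which uses serine in mitochondria. The 3 genes that make serine were not called. Shmt2, the mitochondrial enzyme that splits serine to glycine and loads its carbon on folate, had 143, 133, 131 and 134 CPM in the null and 84.7, 70.8 and 78.6 CPM in the wild type. The null pools were nearly alike (135 ± 5.44 CPM, against 78.1 ± 6.95 CPM in the wild type; SD, n = 4 and 3) and the lowest stood far above the highest wild-type pool. The log2 fold change was 0.78 (SE 0.128, edgeR adjusted p = 0.00443). In GRCm38, 1.0% of its exon bases overlap Ndufa4l2, a neighbour that was also called higher, with a log2 fold change of 3.88, at 116 ± 25.3 CPM in the null and 7.77 ± 3.24 CPM in the wild type. The part of reads from that overlap in the Shmt2 count was not tested. Mthfd2, the next enzyme of the same mitochondrial folate route, had 151, 159, 130 and 145 CPM in the null and 107, 114 and 125 CPM in the wild type. These groups did not overlap either, but the step between them was small and not called (log2 fold change 0.32, SE 0.126, edgeR adjusted p = 0.145).

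The proline enzyme gene Aldh18a1 had 53.2, 61.9, 41.1 and 66.0 CPM in the null and 40.4, 35.9 and 40.1 CPM in the wild type. Null replicate 3 was just above the wild type and the other null pools were further away. The log2 fold change was 0.50 (SE 0.161, edgeR adjusted p = 0.0861), and the gene passed without null replicate 3 (0.0189) and with DESeq2 (0.0498), which made the enzyme count 2. Asns, which makes asparagine and is a long-studied ATF4 target, had 156, 181, 121 and 136 CPM in the null and 130, 110 and 154 CPM in the wild type. The groups overlapped over most of their range (log2 fold change 0.16, SE 0.159, edgeR adjusted p = 0.578). The serine synthesis genes Phgdh, Psat1 and Psph, in the order of their reactions, had log2 fold changes of 0.16 (SE 0.168), 0.0034 (SE 0.141) and -0.13 (SE 0.133), all with overlapping groups. In GRCm38, 10.4% of the exon bases of Psph overlap another gene. Pycr1, which acts after Aldh18a1 in proline synthesis, ranged over 5.51 to 16.4 CPM in the null and 3.51 to 10.5 CPM in the wild type. Cth and Cbs, which turn homocysteine into cysteine, averaged 4.998 ± 1.80 and 1.13 ± 0.2498 CPM in the null and 4.37 ± 1.47 and 1.15 ± 0.747 CPM in the wild type (SD, n = 4 and 3). For these 6 genes the test did not pass, and the errors leave room for changes in either direction.

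**Figure D3:**
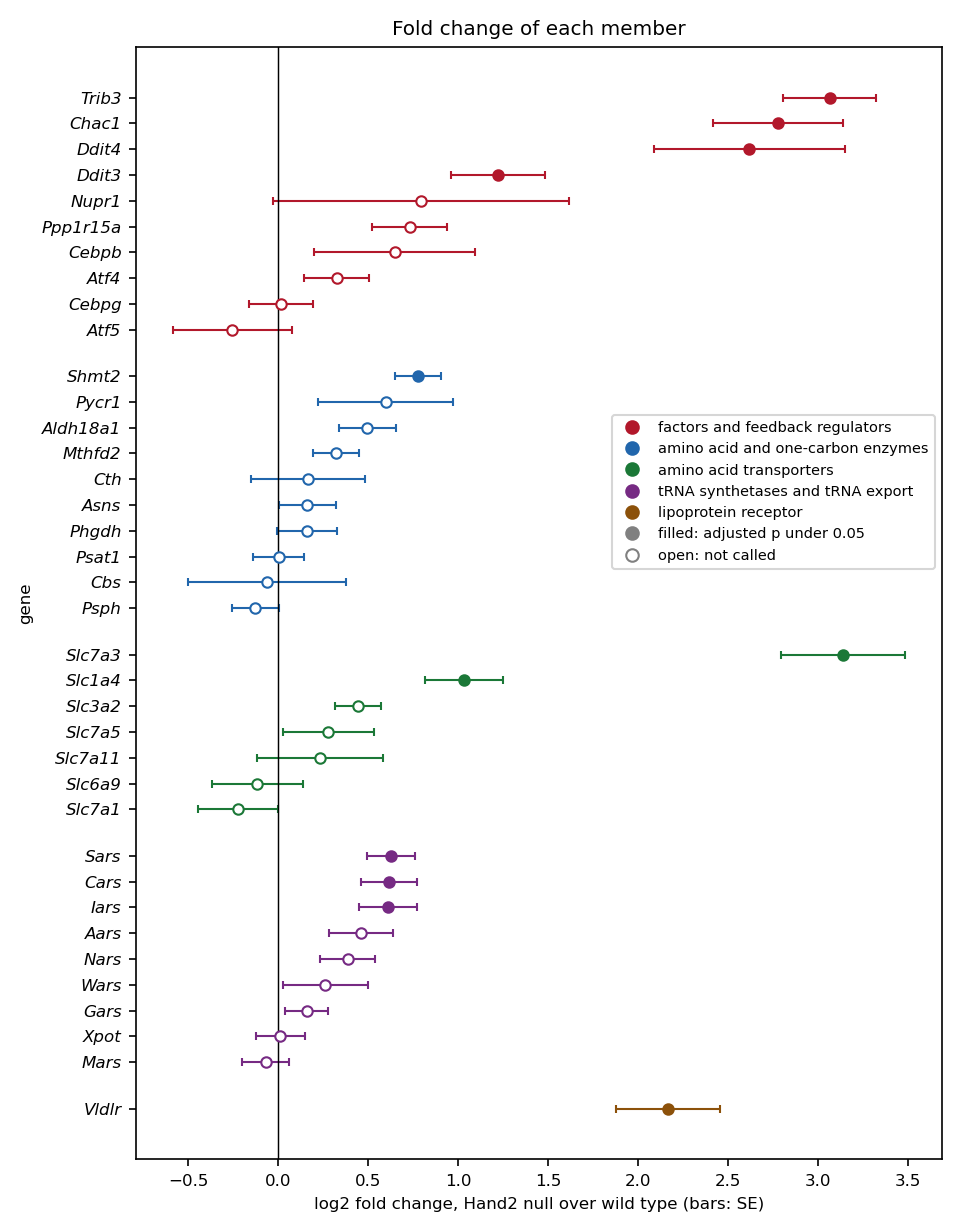
Log2 fold change of Hand2 null over wild type for each of the 37 genes, coloured by role and sorted within it, with bars of 1 SE and filled points for an edgeR adjusted p under 0.05. Filled points run from 0.61 for Iars to 3.14 for Slc7a3, and most open points lie near the line at 0.

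Of the 7 transporters, 2 were called higher (28.6%, where 4.11% of all tested genes were). Slc7a3, which carries the cationic amino acids arginine and lysine, had 7.77, 9.41, 9.80 and 4.96 CPM in the null and 1.00, 0.519 and 1.15 CPM in the wild type. Every null pool was clear of the wild type, with null replicate 4 nearest to it (log2 fold change 3.14, SE 0.345, edgeR adjusted p = 0.000430). Slc1a4, which exchanges neutral amino acids such as serine and alanine, had 10.7, 13.1, 13.7 and 9.14 CPM in the null and 5.15, 6.75 and 4.91 CPM in the wild type, again without overlap. Its log2 fold change was 1.03 (SE 0.216, edgeR adjusted p = 0.0164), and without wild-type replicate 2 it was 0.97 (0.0994), which left 1 called transporter. Slc3a2, the heavy chain that Slc7a5 and Slc7a11 need at the cell surface, had 61.0, 66.7, 64.9 and 56.8 CPM in the null and 45.9, 44.1 and 45.5 CPM in the wild type. All null pools were higher, and it missed the threshold with edgeR (log2 fold change 0.45, SE 0.128, adjusted p = 0.0597) while DESeq2 called it (0.0179).

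The light chains Slc7a5 and Slc7a11, which pair with Slc3a2, overlapped between groups, as did Slc7a1 and Slc6a9. Slc7a5, the large neutral amino acid carrier LAT1, had 14.7, 20.7, 24.2 and 10.4 CPM in the null and 15.2, 14.7 and 12.7 CPM in the wild type, a log2 fold change of 0.28 (SE 0.254). Slc7a11, the cystine carrier, averaged 1.56 ± 0.395 CPM in the null and 1.32 ± 0.256 CPM in the wild type. Slc7a1, which like Slc7a3 carries cationic amino acids, averaged 40.6 ± 10.3 CPM in the null and 46.6 ± 11.5 CPM in the wild type, with a log2 fold change of -0.22 (SE 0.222). The glycine carrier gene Slc6a9 stood at 4.49 ± 0.904 CPM in the null and 4.80 ± 1.32 CPM in the wild type (SD, n = 4 and 3), and 30.2% of its exon bases overlap other genes.

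Of the 9 genes of tRNA charging and export, 3 were called higher (33.3%, where 4.11% of all tested genes were), by smaller steps than the regulators. Sars, which charges the tRNA of serine, had 209, 196, 165 and 198 CPM in the null and 120, 113 and 136 CPM in the wild type (log2 fold change 0.63, SE 0.135, edgeR adjusted p = 0.0192). Cars, for cysteine, had 58.3, 68.1, 45.7 and 69.4 CPM in the null and 36.7, 39.8 and 39.8 CPM in the wild type (0.62, SE 0.155, adjusted p = 0.0380). Iars, for isoleucine, had 110, 141, 91.0 and 149 CPM in the null and 80.7, 74.3 and 82.0 CPM in the wild type (0.61, SE 0.162, adjusted p = 0.0458). In all 3, null replicate 3 was the lowest null pool and still above the wild type. Of the 11 calls, those of Cars and Iars were lost most often. Sars lost its call with null replicate 1 (0.0727) or wild-type replicates 2 (0.125) or 3 (0.117) left out. Cars and Iars kept theirs only without null replicate 3, with adjusted p-values of 0.0616 to 0.185 and 0.0743 to 0.182 without the other single libraries, and Iars also lost it with upper-quartile scaling (0.0511). The group count was therefore 0 with null replicate 1 or wild-type replicates 2 or 3 left out, 1 with null replicates 2 or 4 or wild-type replicate 4 left out, and 5 with null replicate 3 left out.

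Nars and Aars, for asparagine and alanine, were the 2 genes gained without null replicate 3 (adjusted p = 0.0400 and 0.0235). With all libraries, Nars had 240, 270, 186 and 277 CPM in the null and 165, 179 and 206 CPM in the wild type, and null replicate 3 alone fell inside the wild-type range (log2 fold change 0.39, SE 0.152, edgeR adjusted p = 0.144). Aars showed the same layout, with 97.5, 127, 74.4 and 132 CPM in the null and 72.8, 76.0 and 81.8 CPM in the wild type (0.46, SE 0.177, adjusted p = 0.134), and 15.1% of its exon bases overlap other genes. Gars, for glycine, was the steadiest of the group. It had 175, 177, 186 and 184 CPM in the null and 156, 164 and 160 CPM in the wild type, groups that did not overlap but differed little (0.16, SE 0.120, adjusted p = 0.448). Wars, Mars and the tRNA exporter gene Xpot overlapped between groups, with log2 fold changes of 0.26 (SE 0.237), -0.07 (SE 0.132) and 0.013 (SE 0.138). In GRCm38, 2.0% of the exon bases of Mars overlap Ddit3, and reads of the pair in that overlap cannot be told apart without strand.

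Vldlr, a receptor for lipoproteins and for the guidance protein reelin, which has been described as an ATF4 target in liver, was called higher. Its level was 87.2, 92.2, 118 and 48.6 CPM in the null and 22.2, 21.4 and 13.5 CPM in the wild type. Null replicate 4 was well below the other null pools but still above every wild-type pool (log2 fold change 2.16, SE 0.289, edgeR adjusted p = 0.00115). Its gene is also known to respond to low oxygen.

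The 37 genes differed widely in abundance. Divided by exon length (GENCODE M21, which matched 36 of them and not Ddit3), the highest levels were those of Gars at 57.9 CPM per kb, Nars at 55.9 and Asns at 54.4 in the null, and of Gars at 51.3, Asns at 48.0 and Nars at 42.1 in the wild type. The lowest was Slc7a11, at 0.112 CPM per kb in the null and 0.0948 in the wild type. In that order of 36, Trib3 stood at rank 16 in the null and rank 27 in the wild type, and Ddit4 at 13 and 23.

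The null pools did not rank alike across roles. Summed over the 10 regulators, the level was 280, 241, 297 and 198 CPM in null replicates 1 to 4 and 155, 153 and 140 CPM in wild-type replicates 2 to 4, with null replicate 3 highest. For the 9 tRNA genes it was 1067, 1209, 904 and 1251 CPM in the null and 827, 817 and 890 CPM in the wild type, with null replicate 3 lowest and null replicate 4 highest. Both sums were higher in every null pool than in any wild-type pool. The enzymes summed to 714, 773, 597 and 732 CPM in the null and 584, 532 and 598 CPM in the wild type, where null replicate 3 fell just inside the wild-type range. The transporters summed to 134, 162, 172 and 117 CPM in the null and 118, 130 and 108 CPM in the wild type, where null replicate 4 fell well inside that range. Of the 37 genes, null replicate 3 was the lowest null library for 17 and the highest for 10, and null replicate 4 the lowest for 14 and the highest for 11. The tRNA genes shared their order of null pools with 4 of the lists described below: the other cytosolic synthetases, the other one-carbon enzymes, the other amino acid transporters, and the endoplasmic reticulum genes, which summed to 3135, 3591, 2671 and 3834 CPM in the null.

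The other genes of the pathway were taken as lists with 93 genes in all, of which 91 were tested, 9 called higher and 1 lower, where 4.11% and 2.13% of all tested genes were. The 9 were 3 with null replicate 1 or wild-type replicate 3 left out, and 4 with null replicate 2 or wild-type replicate 2 left out. At the head of the pathway, 15 genes covered the eIF2 kinases, the subunits of eIF2 and eIF2B, an eIF2 phosphatase partner, Gcn1l1 and Impact. Of these, 0 were called by edgeR or by DESeq2. At an unadjusted p under 0.05, 0 were higher and 0 lower (13.5% and 10.9% of all tested genes). The log2 fold changes of the 15 ran from -0.34 to 0.14. The kinase genes Eif2ak1, Eif2ak2, Eif2ak3 and Eif2ak4, for HRI, PKR, PERK and GCN2, had log2 fold changes of -0.08 (SE 0.187), 0.016 (SE 0.148), -0.34 (SE 0.259) and -0.21 (SE 0.185). These kinases act through their activity, which RNA levels do not show.

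Of 14 further targets of ATF4 or CHOP, 12 were tested, 5 were called higher and 0 lower, with a median log2 fold change of 0.83. Those called higher were 41.7% of the list, where 4.11% of all tested genes were called higher. Gdf15 and Fgf21 had too few reads. Stc2, which encodes a secreted glycoprotein that is induced by low oxygen as well as by ATF4, had 16.6, 12.9, 13.3 and 11.6 CPM in the null and 1.76, 1.07 and 1.72 CPM in the wild type (log2 fold change 3.14, SE 0.2504, edgeR adjusted p = 5.53e-05). Ero1l, which encodes an oxidase of the endoplasmic reticulum induced by low oxygen and by CHOP, had 229, 187, 221 and 159 CPM in the null and 73.5, 62.3 and 62.8 CPM in the wild type (1.58, SE 0.171, adjusted p = 0.000403). In both, every null pool was far above the wild type. Sesn2, a leucine sensor that restrains mTORC1, averaged 8.08 ± 1.82 CPM in the null and 3.39 ± 1.26 CPM in the wild type (1.22, SE 0.281, adjusted p = 0.0253). Gpt2 and Pck2, mitochondrial enzymes that make alanine and phosphoenolpyruvate, had log2 fold changes of 1.21 (SE 0.266, adjusted p = 0.0211) and 0.84 (SE 0.182, adjusted p = 0.0202). The count of 5 was 2 without null replicate 1 or wild-type replicate 3, and 3 without null replicate 2 or wild-type replicate 2: Stc2 and Ero1l were called in each, Sesn2 had adjusted p-values up to 0.108, Gpt2 up to 0.121 and Pck2 up to 0.112.

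Of 14 other enzymes of one-carbon, methionine and proline metabolism, edgeR called 2 higher and 0 lower, where it called 4.11% and 2.13% of all tested genes. DESeq2 called 3 higher and 2 lower, where it called 7.01% and 5.42% of all genes. At an unadjusted p under 0.05, 3 were higher and 4 lower (13.5% and 10.9% of all tested genes). The log2 fold change was positive for 6 and negative for 8, with a median of -0.15. Mthfd1l, which completes the mitochondrial folate route after Mthfd2, had 80.6, 83.2, 75.3 and 72.5 CPM in the null and 39.0, 45.04 and 43.1 CPM in the wild type (log2 fold change 0.86, SE 0.133, edgeR adjusted p = 0.00310). All null pools were well above the wild type, as for Shmt2. Mtr, methionine synthase, averaged 20.1 ± 3.12 CPM in the null and 11.7 ± 1.99 CPM in the wild type (0.76, SE 0.175, adjusted p = 0.0252). With null replicates 1 or 2 left out its adjusted p was 0.0509 and 0.0715, and with wild-type replicates 2 or 3 left out 0.0939 and 0.131, where 1 gene of the list was called. Of 12 other transporters, Slc7a2, another cationic amino acid carrier (1.24, SE 0.282, adjusted p = 0.0247), and Slc38a2, the starvation-induced glutamine carrier SNAT2 (0.46, SE 0.120, adjusted p = 0.0429), were called higher and 0 lower. Slc38a2 averaged 223 ± 12.3 CPM in the null and 160 ± 11.1 CPM in the wild type, and Slc7a2 3.88 ± 0.779 and 1.62 ± 0.199 CPM (SD, n = 4 and 3). Slc7a2 kept its call only without null replicate 3 or null replicate 4 and Slc38a2 only without null replicate 3, with adjusted p-values up to 0.0981 and 0.217 without the other single libraries, and Slc38a2 also lost it without the filter on low counts (0.0563).

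**Figure D4:**
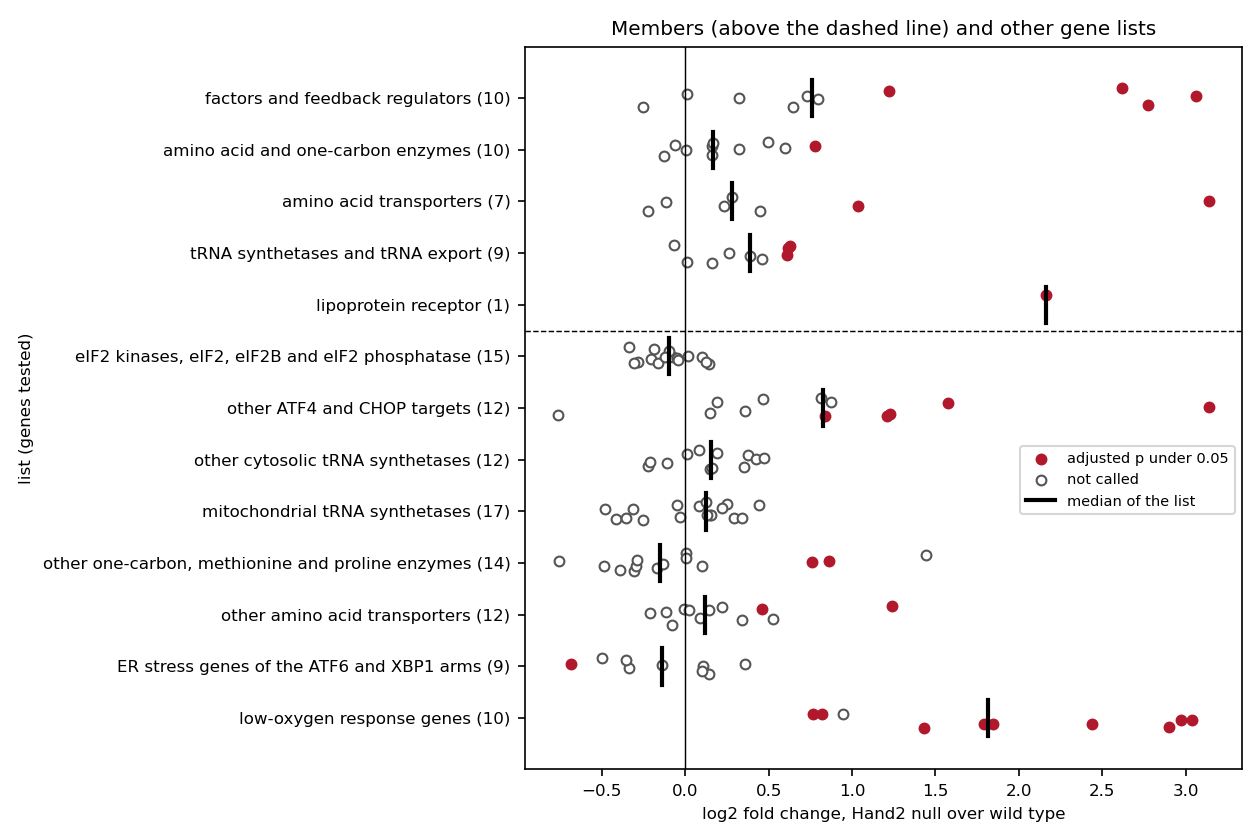
Log2 fold change of Hand2 null over wild type for each tested gene (points, filled for an edgeR adjusted p under 0.05), by list, with the median of each list as a bar. The 5 groups of the 37 genes are above the dashed line, and below it the eIF2 list sits at -0.10 without a filled point while the low-oxygen list sits at 1.82 with 9 of 10 points filled.

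Synthetases outside the 37 were not called. Among 12 other cytosolic synthetases, 0 were called in either direction by edgeR or by DESeq2, and 4 were higher and 0 lower at an unadjusted p under 0.05 (13.5% and 10.9% of all tested genes), with a median log2 fold change of 0.15. Without null replicate 3, 2 of the 12 were called higher. Among 17 mitochondrial synthetases, 0 were called by either tool, and 1 was higher and 2 lower at an unadjusted p under 0.05, with a median of 0.12. Over all tested genes these shares were 13.5% and 10.9%. No test of the difference between the lists was made.

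CHOP is also a factor of the unfolded protein response, whose other arms run through ATF6 and XBP1 and raise chaperone genes. The list held 9 genes of these arms (8 for chaperones and other quality-control proteins of the endoplasmic reticulum, and Xbp1). Of these, edgeR called 0 higher and 1 lower, with 0 higher and 2 lower at an unadjusted p under 0.05. Over all tested genes, 13.5% were higher and 10.9% lower at that unadjusted p. DESeq2 called 2 of the list lower, where it called 5.42% of all genes lower. The gene called by edgeR, Sdf2l1, which encodes a protein of a chaperone complex, had 35.9, 31.5, 30.5 and 36.7 CPM in the null and 52.3, 62.2 and 45.6 CPM in the wild type (log2 fold change -0.68, SE 0.156, edgeR adjusted p = 0.0247). Every null pool was below every wild-type pool. Over all tested genes, edgeR called 2.13% lower. The call was lost with null replicates 1 (0.0523) or 2 (0.0667) or wild-type replicates 2 (0.101) or 3 (0.152) left out, with null replicate 4 left out a second gene of the list was called lower, and with null replicate 3 left out 1 gene was called higher.

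Genes of 2 other responses were higher in the same libraries. Of 10 low-oxygen response genes, 9 were called higher and 0 lower, where 4.11% and 2.13% of all tested genes were. Their summed level was 4240 to 5294 CPM in the null and 1862 to 2284 CPM in the wild type, without overlap. The 6 with the smallest p had log2 fold changes of 2.90 (Bhlhe40, a clock-linked repressor), 3.04 (Ndrg1), 2.97 (Egln3, an oxygen-sensing hydroxylase), 1.79 (the peptide hormone gene Adm), 1.43 (Bnip3, of mitochondrial clearance) and 2.44 (the carbonic anhydrase gene Car9), with edgeR adjusted p-values from 2.05e-05 to 0.00328. Ddit4, Vldlr, Stc2 and Ero1l are known to respond to low oxygen as well as to ATF4 or CHOP, and the part of low-oxygen signalling in their levels was not tested. Of 5 immediate early genes, which respond to handling of tissue as well as to growth signals, Fos (log2 fold change 1.00, SE 0.167) and Jun (0.67, SE 0.156) were called higher and 0 lower, and the sum was 71.5 to 88.9 CPM in the null and 43.9 to 50.6 CPM in the wild type. Jun lost its call with null replicate 1 (edgeR adjusted p = 0.0524) or wild-type replicates 2 (0.0935), 3 (0.116) or 4 (0.0827) left out, which left 1 called gene. In null replicates 1 to 4, the immediate early sum was 71.5, 78.8, 88.9 and 77.7 CPM and the regulator sum 280, 241, 297 and 198 CPM. Null replicate 3 was thus highest in both, while null replicate 1 was lowest in the immediate early sum only. The part of dissection in the regulators was not tested.

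Most cell type markers were not called, where 4.11% of all tested genes were called higher and 2.13% lower. Of 5 endocardial markers, 1 was called higher (Pecam1, log2 fold change 0.74; edgeR adjusted p = 0.0107, 0.0509 with null replicate 1 left out, and 0.0873 and 0.0789 with wild-type replicates 2 and 3 left out), with sums of 262 to 289 CPM in the null and 209 to 217 CPM in the wild type, which did not overlap. Their part in the 11 calls was not tested. Of 5 cardiomyocyte, 4 canal, 5 red blood cell and 4 proepicardial markers, 0 were called in either direction. At an unadjusted p under 0.05, 1 cardiomyocyte and 1 proepicardial marker were higher and 2 red blood cell markers lower (13.5% and 10.9% of all tested genes). All 5 red blood cell markers had negative log2 fold changes (median -0.67), and their sums overlapped, at 5602 to 14510 CPM in the null and 9329 to 22038 CPM in the wild type. The proepicardial sum was 56.0 to 68.6 CPM in the null and 40.0 to 59.0 CPM in the wild type. Foregut, white blood cell and neural crest markers summed to at most 13.5, 2.07 and 1.46 CPM in the null and 7.98, 1.21 and 1.79 CPM in the wild type, with Shh at 0 reads in 1 null and 3 wild-type libraries, C1qa in 3 null libraries, Sox10 in 2 null libraries and Foxd3 in 3 null and 2 wild-type libraries.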

How the data were processed

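The deposited files hold counts, whole-number reads per gene symbol for each library. They were made on mouse build mm9, and the tools named are TopHat2 2.0.13, HTSeq and SAMtools, per the submitters' processing notes. Which gene models and counting options were used is not given in the sources used here. Per the labels' protocols, rRNA was depleted with Ribo-Zero, cDNA was made from 30 to 60 ng of RNA with a SMARTer low-input kit, amplified by 8 PCR cycles and sequenced as single 50 nt reads without strand information. Reads of overlapping genes on opposite strands can therefore not be told apart, and reads are not independent molecules, so the floor covers counting error only. The 5 summary lines of the counter were left out (reads in no gene 7.31% to 14.2%, aligned to several places 9.08% to 13.8%, ambiguous 1.46% to 1.69% of counted reads). Genes with close copies lose reads aligned to several places, and Phgdh has 1 named pseudogene.

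From the deposited counts, edgeR 4.0.16 in R 4.3.3 fitted genotype over all 7 libraries (5 residual degrees of freedom), with TMM scaling, the default filter (minimum count 10) and the quasi-likelihood F test. SE was taken as the absolute log2 fold change over the root of F, and SD is over libraries. Each library is a separate pool of embryos. All pairs of libraries differed beyond sampling noise. The pools' numbers were not taken to pair libraries across genotypes. DESeq2 1.42.0, other scalings and filters, a replicate block and leaving out libraries were the alternatives. The code was tested on simulated data.

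The 37 genes and all lists were chosen with earlier results of these data known. All 37 are described, and of each other list the called genes (at most 6, by smallest p), with the rest as counts. Promoters were shown for called genes that hold the element. RefSeq windows and GENCODE lengths are on GRCm38, while the counts were made on mm9, so they were joined by symbol only. No promoter window was used for Cth, Slc7a5, Slc7a3, Cars, Wars and Nars.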

Additional observations from a re-analysis of the deposited data

How the results depend on the processing

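Of the 37 genes, 11 were called higher and 0 lower. The count was 10 to 14 under RLE scaling, upper-quartile scaling, no filter, a minimum count of 30 (which left 36 genes) and DESeq2, 5 to 15 with any 1 library left out, and 6 when null replicate 2 and wild-type replicate 4 were both left out. No alternative called any of the 37 lower, and 5 of the 11 kept their call in all 14. Over all genes, DESeq2 called 993 higher and 768 lower, leaving out 1 library gave 210 to 946 higher and 46 to 652 lower, and leaving out those 2 libraries gave 298 and 123. Of the other pathway genes (9 higher, 1 lower), 3 to 12 were higher and 0 to 3 lower with 1 library left out, DESeq2 called 4 lower, and 4 were higher and 0 lower without those 2 libraries. Counted together with the low-oxygen genes (18 higher, 9 of them low-oxygen), 11 to 21 were higher with 1 library left out. The cause was not tested, though leaving out libraries also leaves fewer for the test. Same-numbered pools had correlations of -0.07, 0.26 and 0.17 between their deviations from the group means. Those for numbers 3 and 4 were the highest of all combinations, while wild-type replicate 2 correlated best with null replicate 4 (0.08). With so few libraries per group, these values cannot decide whether the numbers paired the libraries. With the replicate block, which needs the 6 numbered in both genotypes, 12 of the 37 were higher and 0 lower, and over all genes 814 were higher and 565 lower. Under it Ppp1r15a gained a call (edgeR adjusted p = 0.0226), and Slc38a2 lost its own (0.0517).

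Sign changes were limited to genes that were not called. With RLE, upper-quartile scaling, DESeq2 and without those 2 libraries, Cebpg had log2 fold changes of -0.0038, -0.0041, -0.0038 and -0.089, Psat1 -0.013, -0.016, -0.012 and -0.038, and Xpot -0.0034, -0.0055, -0.0033 and -0.11. With the block, Psat1 was -0.0082 and Cbs 0.16. With any 1 library left out, the ranges were -0.085 to 0.10 for Cebpg, -0.054 to 0.092 for Psat1, -0.0051 to 0.24 for Phgdh, -0.031 to 0.46 for Cth, -0.35 to 0.62 for Cbs, -0.29 to 0.071 for Slc6a9 and -0.10 to 0.10 for Xpot. Depth limits Nupr1, Chac1, Slc7a3, Cbs, Slc7a11 and Cebpb most, each with libraries of under 50 reads.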
